A study of Homo sapiens with 12 samples.

Results

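MIR191 and MIR425 are the genes of a pair of microRNA precursors that lie in an intron of DALRD3 and are cut from its transcript. They were chosen by name as the rows of the count files whose GENCODE gene name is MIR191 or MIR425, which gave 2 of 1881 rows. Small RNA was sequenced from A375, an established human melanoma line with an activating BRAF mutation, and from A375-BIR, a derivative of A375 that grows in the presence of the BRAF inhibitor dabrafenib. Both lines were cultured for 48 h either with 200 nM dabrafenib or with its solvent alone (DMSO at 0.1%), and each of the 4 groups has 3 libraries, 12 in all. A375-BIR was obtained from A375 by weeks of culture in rising concentrations of dabrafenib, so a difference between the lines cannot be told apart from any other change acquired in that culture. The labels call the libraries of a group biological replicates without naming separate cultures, and the p-values below measure the spread between these libraries. The comparisons asked whether the levels of MIR191 and MIR425 differed between the lines or with dabrafenib, whether the pair moved together, and how it served as a reference for the other microRNAs.

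A microRNA gene is transcribed as part of a longer RNA, from which a hairpin is cut in the nucleus and trimmed in the cytoplasm to a mature strand of either arm. The mature strand is loaded into an Argonaute protein and finds its target mRNAs mainly through its seed, the short stretch next to its 5′ end. Precursors that sit close together on the same strand share a primary transcript, yet each hairpin is processed and its mature strand is degraded on its own. DALRD3, the host of MIR191 and MIR425, encodes a protein that takes part in the methylation of tRNA. miR-191 is abundant in many tissues and, like miR-425, has been used to normalise RT-PCR measurements of other microRNAs, a use that asks for a level that is the same in every sample.

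MIR191 (ENSG00000207605.3) lies at chr3:49020618-49020709 and MIR425 (ENSG00000199032.1) at chr3:49020148-49020234 of hg38, both on the minus strand. DALRD3 spans chr3:49015488-49022293 on the same strand, and all 4 of its 15 annotated transcripts that span the precursors hold both in introns. MIR191 is 92 bases long, MIR425 is 87 bases long, and 383 bases separate them. Both members matched RefSeq entries (build GRCh38.p14), with 2 hairpins and 3 mature sequences. The entries used did not include miR-425-5p, from the other arm of MIR425, so its seed was not compared. The mature sequences are shown because the seed, in capitals (bases 2 to 8), decides which targets a microRNA pairs with:
miR-191-5p: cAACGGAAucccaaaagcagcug
miR-191-3p: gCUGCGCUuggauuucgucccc
miR-425-3p: aUCGGGAAugucguguccgccc
The 3 seeds differ from each other, and no other human gene in the RefSeq table has a mature sequence with any of them. The hairpins are shown because a row of the count files is a precursor, with the listed mature strands in capitals:
MIR191: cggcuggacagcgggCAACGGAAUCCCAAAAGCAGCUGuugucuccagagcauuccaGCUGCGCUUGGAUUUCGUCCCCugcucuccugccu
MIR425: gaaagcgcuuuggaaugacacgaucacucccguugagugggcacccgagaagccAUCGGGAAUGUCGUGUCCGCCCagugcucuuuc
The longest run of bases that the hairpins of MIR191 and MIR425 share is 6 bases. Against 1560 other hairpins the longest shared run was 11 bases for MIR191, with MIR1244-1, and 12 bases for MIR425, with MIR11399. The counts of MIR191 were not whole numbers in 5 of 12 libraries, whereas those of MIR425 were whole in each library. The counting program splits a read among the genes that could have given it, and which gene shared reads with MIR191 was not tested.

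The summed counts of a library ranged from 35070 to 122792. Libraries of the same group differed by more than sampling noise, as pairs within a group gave chi-square values of 2.67 to 39.4 when divided by their degrees of freedom. Replicate 3 of A375-BIR in DMSO stood apart from replicates 1 and 2, with 34.2 and 39.4 against 2.67 between those. The scaling factors also differed between groups: the TMM factors of A375 in dabrafenib were 0.81, 0.69 and 0.82, while those of the other 9 libraries lay between 1.05 and 1.19. The label of the cells was compared with 10 microRNAs of pigment cells and melanoma and 8 microRNAs of liver, muscle and blood cells. The first list held from 3.00% to 7.51% of the counts of a library, with MIR146A as its most abundant gene in A375 and MIR221 in A375-BIR. Its summed count per library was 4552 to 6871 for A375 in DMSO, 1134 to 1545 for A375 in dabrafenib, 7840 to 8657 for A375-BIR in DMSO and 1330 to 2745 for A375-BIR in dabrafenib. These sums rest mainly on MIR221, MIR222 and MIR146A, with 30040, 9699 and 9665.5 counts over all libraries. The next of the list, MIR204, had 1265. MIR211, the microRNA of the melanocyte gene TRPM1, was nearly absent, with 0 to 9 counts per library, MIR514A1 was at 0 in each library, and MIR204 had 9 to 302 counts. The list of other cell types held at most 9.5 counts in any library, or at most 0.0189% of the counts, with MIR142 as its most abundant gene and MIR122 and MIR451A at 0.

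MIR191 was among the abundant microRNAs in both lines. Its expected count was 528, 509 and 581.5 in A375 in DMSO and 177, 217.5 and 176 in A375 in dabrafenib. In A375-BIR it was 657, 677 and 1031.5 in DMSO and 294, 403 and 209 in dabrafenib. The lower counts under dabrafenib went with smaller libraries, so levels were compared as CPM, counts divided by library size and given on a fixed total, after TMM scaling, which sets the libraries to a common scale from the bulk of the precursors. A level in such libraries is a share of the microRNA counted, and fewer cells with the RNA and less RNA per cell cannot be told apart. In CPM, MIR191 was 6267, 3831 and 6061 in A375 in DMSO and 4575, 6083 and 5798 in A375 in dabrafenib. It was 5900, 5266 and 7071 in A375-BIR in DMSO and 7963, 6009 and 4197 in A375-BIR in dabrafenib. The lowest library belonged to A375 in DMSO and the highest to A375-BIR in dabrafenib, and each of the 6 pairs of groups overlapped after TMM scaling and with DESeq2 size factors. With total counts 5 of 6 pairs overlapped, as MIR191 was 3727 to 4764 CPM in A375 in dabrafenib and 5616 to 8401 CPM in A375-BIR in DMSO, 2 groups that did not overlap for 121 of 175 precursors (69.1%) on that scale. From low to high, the group means of MIR191 were 5386 ± 1351 CPM (SD, n = 3) for A375 in DMSO and 5485 ± 801 CPM for A375 in dabrafenib, followed by 6057 ± 1883 CPM for A375-BIR in dabrafenib and 6079 ± 916 CPM for A375-BIR in DMSO. No neighbours in this order differed beyond their spread.

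MIR425 was counted far less often. Its expected count was 33, 55 and 45 in A375 in DMSO and 32, 24 and 6 in A375 in dabrafenib. In A375-BIR it was 42, 86 and 61 in DMSO and 18, 49 and 32 in dabrafenib. Such counts carry wide counting errors: the count of 6 has an exact 95% Poisson interval from 2.20 to 13.1 and the count of 86 one from 68.8 to 106 (counting error only). In CPM, MIR425 was 392, 414 and 469 in A375 in DMSO and 827, 671 and 198 in A375 in dabrafenib. It was 377, 669 and 418 in A375-BIR in DMSO and 488, 731 and 642 in A375-BIR in dabrafenib. A375 in dabrafenib held both the highest and the lowest library of MIR425, and the lowest was the library with 6 counts. The group means of MIR425 were, from low to high, 425 ± 40 CPM (SD, n = 3) for A375 in DMSO, 488 ± 158 CPM for A375-BIR in DMSO, 565 ± 328 CPM for A375 in dabrafenib and 620 ± 123 CPM for A375-BIR in dabrafenib. Neighbours in this order overlapped. The ends of the order, A375 in DMSO and A375-BIR in dabrafenib, did not overlap for MIR425 after TMM scaling, as for 103 of 175 precursors (58.9%), and they overlapped with DESeq2 size factors and with total counts.

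**Figure D1:**
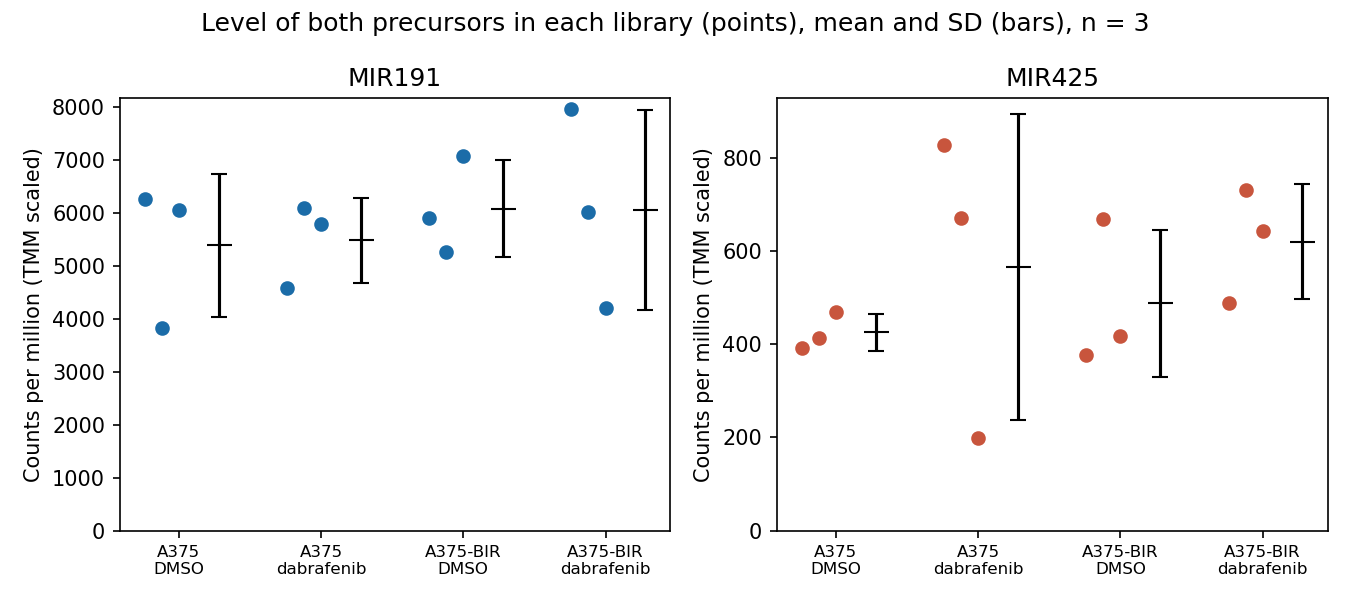
TMM-scaled CPM of MIR191 (left) and MIR425 (right) in each of the 12 libraries (points, 3 per group), with the group mean and SD beside them; both axes start at 0. The groups of MIR191 overlap throughout, and A375 in dabrafenib spans 198 to 827 CPM for MIR425.

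Neither MIR191 nor MIR425 differed between the lines beyond the spread of the libraries. In DMSO, MIR191 in A375 had a log2 fold change over A375-BIR of -0.18 ± 0.24 (SE), with a 95% interval from -0.69 to 0.34 and an edgeR adjusted p of 0.574. MIR425 had -0.20 ± 0.32, with an interval from -0.90 to 0.49 and an edgeR adjusted p of 0.637. On the linear scale these intervals run from 0.619 to 1.27 for MIR191 and from 0.537 to 1.41 for MIR425. A change within these ranges was not excluded at this depth and number of libraries. In this comparison 0 of 2 members were called by edgeR at an adjusted p under 0.05 (0 also at an unadjusted p under 0.05 and 0 by DESeq2), against 81 of 175 precursors (46.3%). The groups overlapped for both members, while they did not for 107 of 175 precursors (61.1%). Without replicate 3 of A375-BIR in DMSO, the library that stood apart, MIR191 was at -0.045 and MIR425 at -0.28.

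In dabrafenib neither member passed the test between the lines. MIR191 had a log2 fold change of A375 over A375-BIR of -0.14 ± 0.25 (95% interval -0.67 to 0.39, edgeR adjusted p = 0.687). MIR425 had -0.12 ± 0.37 (95% interval -0.92 to 0.68, edgeR adjusted p = 0.855). Here 0 of 2 members were called by edgeR (0 at an unadjusted p under 0.05, 0 by DESeq2), against 81 of 175 precursors (46.3%), and 88 of 175 (50.3%) had groups that did not overlap. The value of MIR425 turned to 0.25 without replicate 3 of A375 in dabrafenib, the library with 6 counts, and that of MIR191 to 0.10 without replicate 1 of A375-BIR in dabrafenib.

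Over both treatments the difference between the lines had smaller standard errors than in either treatment, and neither member passed the test. MIR191 had a log2 fold change of -0.16 ± 0.17 and a 95% interval from -0.53 to 0.21 (edgeR adjusted p = 0.440), or 0.897-fold with an interval from 0.693 to 1.16. MIR425 had -0.16 ± 0.25 and an interval from -0.69 to 0.37 (edgeR adjusted p = 0.577). By edgeR 0 of 2 members were called (0 at an unadjusted p under 0.05, 0 by DESeq2), while 105 of 175 precursors (60.0%) were. By the size of the fold change MIR191 was in place 21 and MIR425 in place 22 of 175 from the smallest, where the median absolute log2 fold change was 0.67. These values moved with the scaling: MIR191 was at -0.40 with total counts (edgeR adjusted p = 0.0658, the lowest of a range up to 0.849 over the alternatives) and at -0.039 with DESeq2 size factors, and MIR425 at -0.40 and -0.053. MIR425 was at 0.026 without replicate 3 of A375 in dabrafenib.

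Neither MIR191 nor MIR425 passed the test for dabrafenib in A375, and the sign of both values depended on the scaling. After TMM scaling, MIR191 had a log2 fold change of dabrafenib over DMSO of 0.028 ± 0.25 (95% interval -0.50 to 0.56, edgeR adjusted p = 0.927), place 3 of 175 from the smallest. MIR425 had 0.45 ± 0.37 (95% interval -0.34 to 1.23, edgeR adjusted p = 0.412), place 81 of 175. Under the other 4 scalings (DESeq2 size factors, upper quartile, total counts without precursors that resemble rRNA, and total counts) MIR191 was at -0.18, -0.37, -0.45 and -0.48 and MIR425 at 0.25, 0.070, -0.035 and -0.061. With total counts the group means were 4237 CPM in dabrafenib and 5902 CPM in DMSO for MIR191, and 434 and 466 CPM for MIR425. By edgeR 0 of 2 members were called (0 at an unadjusted p under 0.05, 0 by DESeq2), against 44 of 175 precursors (25.1%), and 77 of 175 (44.0%) had groups that did not overlap, neither member among them. Without the library with 6 counts, MIR425 was at 0.82 with an edgeR adjusted p of 0.0681. Over the 12 libraries left out in turn, the edgeR adjusted p of MIR425 ranged from 0.0681 to 0.957.

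In A375-BIR neither member passed the test for dabrafenib either. MIR191 had a log2 fold change of dabrafenib over DMSO of -0.0098 ± 0.24 (95% interval -0.53 to 0.51, edgeR adjusted p = 0.989), again place 3 of 175. MIR425 had 0.37 ± 0.34 (95% interval -0.35 to 1.09, edgeR adjusted p = 0.481), place 83 of 175. By edgeR 0 of 2 members were called (0 at an unadjusted p under 0.05, 0 by DESeq2), against 36 of 175 precursors (20.6%), and 64 of 175 (36.6%) had groups that did not overlap, neither member among them. The responses of the lines were also compared directly. The difference in response, A375 minus A375-BIR, was 0.038 ± 0.35 for MIR191 (95% interval -0.70 to 0.78) and 0.081 ± 0.49 for MIR425 (95% interval -0.98 to 1.14), with an edgeR adjusted p of 0.998 for each. Again 0 of 2 members were called (0 at an unadjusted p under 0.05, 0 by DESeq2), against 6 of 175 precursors (3.43%). The comparisons share libraries, so the like values of MIR191 and MIR425 in them are not independent of each other.

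**Figure D2:**
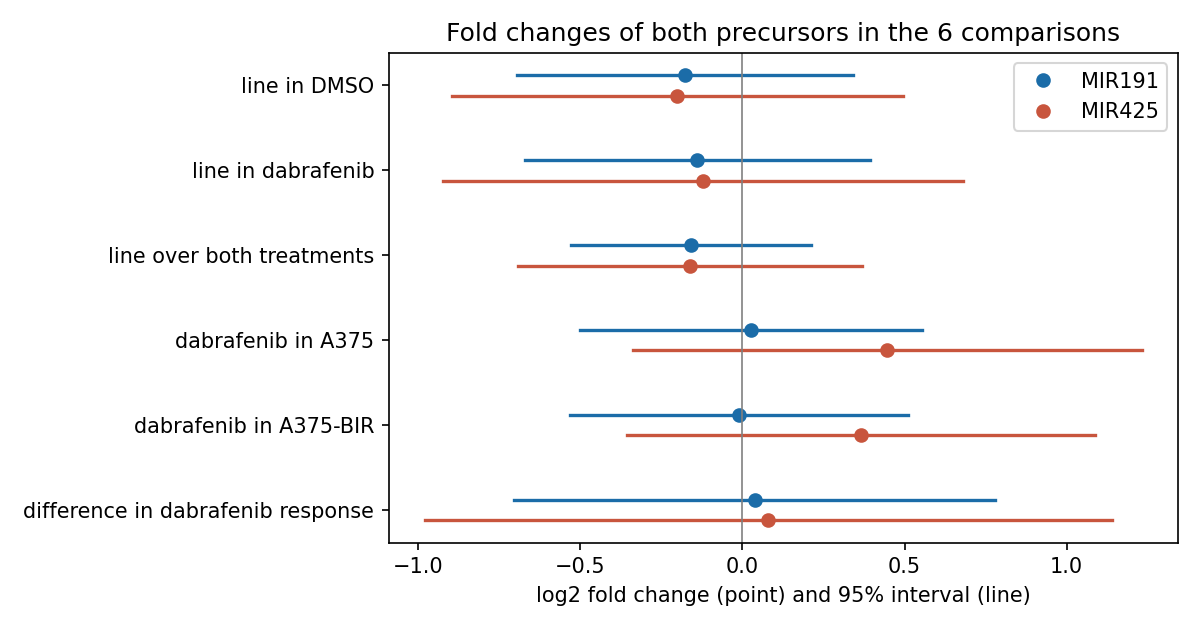
Log2 fold change (point) and 95% interval (line) of MIR191 and MIR425 in the 6 comparisons, from edgeR over 12 libraries; the line comparisons are A375 over A375-BIR and the treatment comparisons dabrafenib over DMSO. Each interval includes 0, and those of MIR425 are wider than those of MIR191.

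The direction of some small changes depended on the scaling. For the difference in response both members turned below 0 under each of the 4 other scalings run. For dabrafenib in A375, with total counts in place of TMM, MIR191 had a log2 fold change of -0.48 (edgeR adjusted p = 0.162, the lowest of a range up to 0.976 over the alternatives) and MIR425 one of -0.061. Between the lines in dabrafenib, total counts gave -0.62 for MIR191 (edgeR adjusted p = 0.0646, the lowest of a range up to 0.878 over the alternatives) and -0.60 for MIR425, and the called precursors were 24 higher and 58 lower in place of 42 and 39. For dabrafenib in A375 this change of scaling moved the median of all 175 precursors from 0.14 to -0.36, and between the lines in dabrafenib from -0.030 to -0.50. It moved the split of called precursors for dabrafenib in A375 from 32 higher and 12 lower to 18 higher and 44 lower. A change of scaling moves all precursors by about the same amount, so a value relative to the median is nearly the same under each scaling by construction and says nothing of stability. Relative to the median after TMM scaling, MIR191 was at -0.11 and MIR425 at 0.30 for dabrafenib in A375, at 0.032 and 0.41 for dabrafenib in A375-BIR, at -0.11 and -0.090 between the lines in dabrafenib and at -0.047 and -0.050 for the line over both treatments.

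The ratio of MIR191 to MIR425 within a library needs no scaling, and it did not move beyond its spread with line or treatment. The count of MIR191 over that of MIR425 was 16.0, 9.25 and 12.9 in A375 in DMSO and 5.53, 9.06 and 29.3 in A375 in dabrafenib. It was 15.6, 7.88 and 16.9 in A375-BIR in DMSO and 16.3, 8.22 and 6.54 in A375-BIR in dabrafenib. The highest and the lowest ratio both came from A375 in dabrafenib, and the groups overlapped in the 4 comparisons of line and treatment. The mean log2 ratio was 3.63 ± 0.40 (SD, n = 3) in A375 in DMSO, 3.51 ± 1.24 in A375 in dabrafenib, 3.67 ± 0.61 in A375-BIR in DMSO and 3.26 ± 0.69 in A375-BIR in dabrafenib. Adapters are ligated to different small RNAs with different efficiency, so the size of the ratio is compared between libraries only.

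Exact two-sided permutation tests of the log2 ratio exchanged labels within strata over 400 arrangements, where the smallest possible p is 0.005. For the line within treatment, A375 minus A375-BIR was 0.10 ± 0.46 (SE), with an exact permutation p of 0.825 (0.825 after Benjamini-Hochberg adjustment over the 3 tests). For the treatment within line, dabrafenib minus DMSO was -0.27 ± 0.46, with an exact permutation p of 0.535 (0.825 adjusted). The difference between the lines in that change was 0.29 ± 0.92, with an exact permutation p of 0.765 (0.825 adjusted). Without replicate 3 of A375 in dabrafenib, the values were -0.24, -0.61 and -0.40, and the exact permutation p values 0.515, 0.12 and 0.605. With errors of this size, even a shift of the ratio of MIR191 to MIR425 somewhat larger than the standard errors given could have been missed.

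Within the groups, MIR191 and MIR425 were not seen to rise and fall together from library to library. Both lay on the same side of their group means in 5 of 12 libraries. The deviations of log2 CPM from the group means had a Pearson r of -0.31 (exact permutation p = 0.255 over all pairings within groups) and a Spearman rho of -0.43 (exact permutation p = 0.161), over 12 libraries whose 2 values share a library and a scaling factor. Without the 2 libraries farthest from the median on MIR191, replicate 3 of A375-BIR in dabrafenib and replicate 2 of A375 in DMSO, Pearson r was -0.45. With total counts r was -0.33 (exact permutation p = 0.181) and rho -0.43 (exact permutation p = 0.173). With DESeq2 size factors r was -0.42 (exact permutation p = 0.0131) and rho -0.61 (exact permutation p = 0.0154), so the side of the 0.05 threshold depended on the scaling. After Benjamini-Hochberg adjustment over these 6 tests the exact permutation p was 0.0462 for r and rho with DESeq2 size factors and 0.217 to 0.255 for the others.

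The log2 ratio of MIR191 to MIR425 had an SD of 0.70 over the 12 libraries and 0.79 within groups. Its counting error was 0.30, nearly all of it from MIR425, with 0.29 against 0.079 for MIR191.

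**Figure D3:**
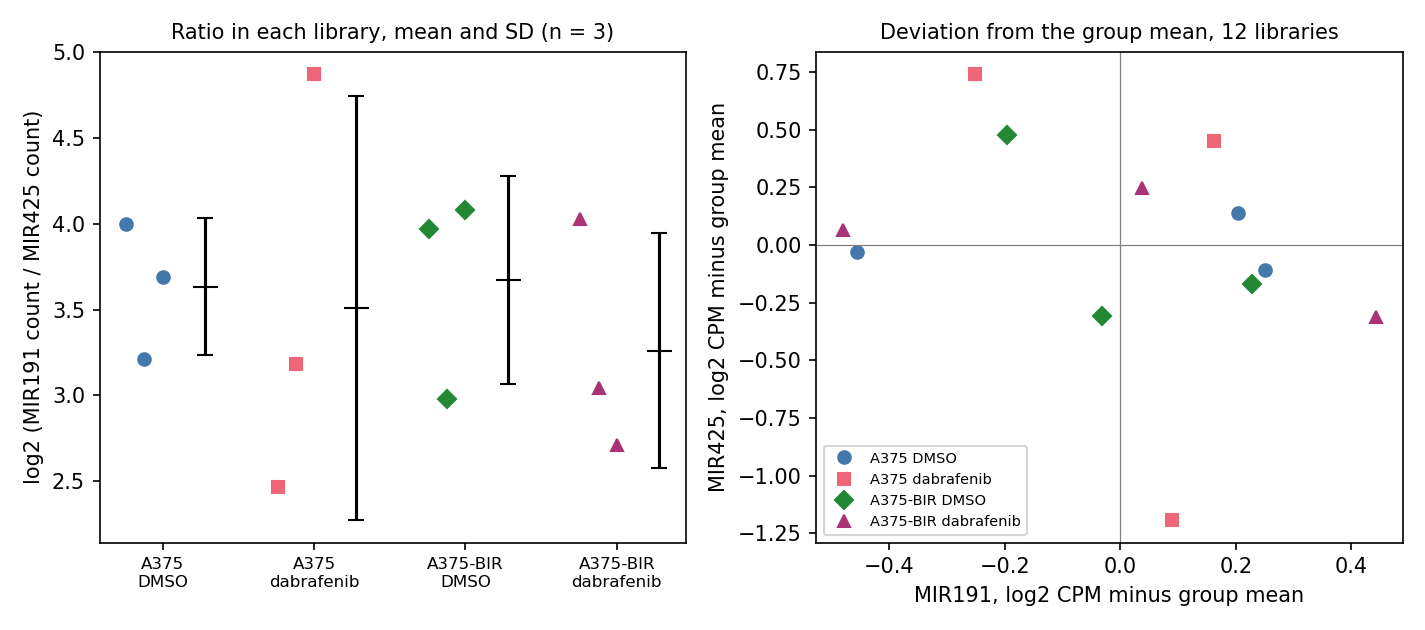
Left, log2 ratio of the MIR191 count to the MIR425 count in each library (points) with group mean and SD (n = 3). Right, deviation of log2 CPM from the group mean for MIR425 against MIR191 in 12 libraries, marked by group; replicate 3 of A375 in dabrafenib lies lowest, at -1.19 for MIR425 and 0.089 for MIR191.

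MIR191 was one of the steadier precursors over the 12 libraries, and MIR425 was in the middle. The SD of log2 CPM over all libraries was 0.30 for MIR191, place 17 of 175 from the least variable, and 0.53 for MIR425, place 60, against a median of 0.68 for all precursors. From the lowest to the highest library the level, taken from log2 CPM with its prior count, changed 2.07-fold for MIR191 and 3.83-fold for MIR425. The range of MIR425 rests on the library with 6 counts, at 198 CPM. Its next lowest library was at 377 CPM and its highest at 827 CPM. Each member was also set beside precursors within 1 log2 unit of its mean level, whose median SD was 0.68 near MIR191 and 0.57 near MIR425. Of 21 such precursors 4 were less variable than MIR191, and of 50 such precursors 22 were less variable than MIR425. With DESeq2 size factors the places were 8 and 58, and with total counts they were 23 and 66.

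Other precursors that are used as references in RT-PCR gave a mixed picture. Of 21 on the list 17 could be tested; MIR103A1, MIR103A2, MIR423 and MIR24-1 were filtered out for low counts. The median SD of log2 CPM over the 17 was 0.35, and 6 of them were less variable than MIR191 and 13 less variable than MIR425. After TMM scaling those below MIR191 (0.30) were MIR92A2 (0.23), MIR92A1 (0.25), MIRLET7A3, MIRLET7A1 and MIRLET7A2 (each 0.29) and MIR26A1 (0.30). The 3 genes of let-7a give the same mature strand and share reads, as do MIR92A1 and MIR92A2, so each set counts as a single measurement. Which references were steadier than MIR191 depended on the scaling: with DESeq2 size factors they were MIR92A2 and MIR92A1, and with total counts MIR25, MIR92A2, MIR484 and MIR92A1. With total counts the SD of log2 CPM was 0.43 for MIRLET7A1 and 0.40 for MIR191. The number less variable than MIR425 was 13 of 17 on each of these 3 scales.

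After TMM scaling only MIR484, MIR92A1 and MIR92A2 of the 17 listed references were called by edgeR in none of the 6 comparisons, as were MIR191, MIR425 and 50 of all 175 precursors (28.6%). For the line over both treatments 12 of 17 references were called lower in A375 and 0 higher, while 60 of all 175 precursors (34.3%) were lower and 45 higher. The median log2 fold change was -0.50 for the references and -0.11 for all precursors. Counted by sets of genes with the same mature strand, 8 of 12 were lower. After TMM scaling the largest fold change among the 17 was that of MIR93, at -0.996 (edgeR adjusted p = 0.00346). The lowest adjusted p on that scale belonged to MIRLET7A2, at -0.51 (edgeR adjusted p = 5.1e-05). In DMSO 10 of 17 (7 of 12 sets) were lower in A375, beside 53 of 175 precursors (30.3%), and in dabrafenib 6 of 17 (4 of 12 sets), beside 39 of 175 (22.3%), with 0 of 17 higher in either. Under the other 4 scalings, chosen for the references after seeing the data, 10 to 13 of 17 were lower over both treatments, 7 to 10 in DMSO and 2 to 11 in dabrafenib, and 1 was higher in DMSO with upper quartile scaling. Of all 175 precursors, 27.4% to 41.1% were lower over both treatments under these scalings. In DMSO 23.4% to 30.9% were lower and in dabrafenib 20% to 33.1%, and 30.3% were higher in DMSO with upper quartile scaling. Over both treatments all precursors split into 54 higher and 50 lower with DESeq2 size factors and 54 and 48 with upper quartile scaling. With total counts the split was 35 higher and 72 lower. For dabrafenib in A375 1 of 17 was called, beside 44 of 175 precursors (25.1%), after TMM scaling. It was MIR25, with a log2 fold change of 0.85 (edgeR adjusted p = 0.00379), which missed the threshold under each of the other 4 scalings (0.36 to 0.65, with edgeR adjusted p from 0.0537 to 0.162). With total counts 5 of 17 (3 of 12 sets) were lower, beside 44 of 175 precursors (25.1%), and also 5 of 17 without precursors that resemble rRNA. With upper quartile scaling 2 of 17 were lower, beside 33 of 175 (18.9%). With DESeq2 size factors 0 of 17 were called, beside 46 of 175 precursors, 23 higher and 23 lower (13.1% each). With total counts the share of references called lower was near that of all precursors. With TMM, DESeq2 size factors and upper quartile scaling the share of references called was smaller, and the difference was not tested. With total counts MIR24-2 was at -0.88 (edgeR adjusted p = 0.00625) and MIRLET7A1 at -0.38 (edgeR adjusted p = 0.00874), in a comparison where that scaling moved the median of all precursors to -0.36. In A375-BIR 1 of 17 was called, beside 36 of 175 (20.6%): MIR24-2 fell with -0.65 (edgeR adjusted p = 0.0282), and was called lower under the other 4 scalings too.

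**Figure D4:**
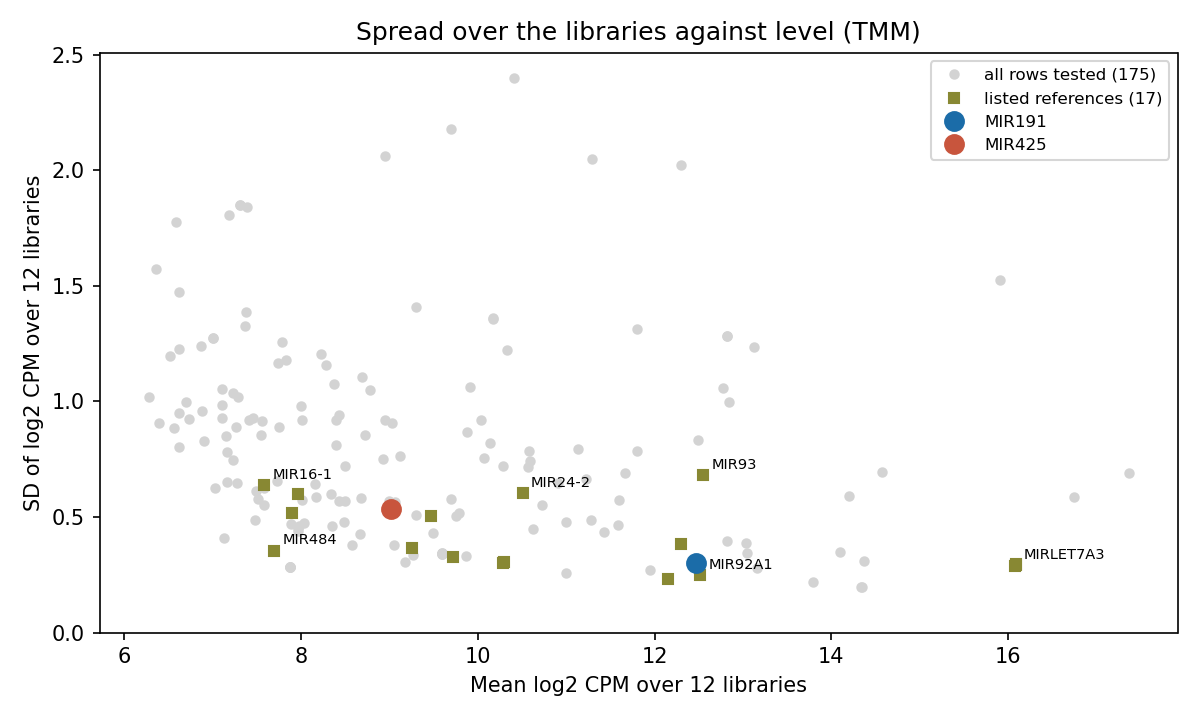
SD of log2 CPM over the 12 libraries against the mean log2 CPM for the 175 precursors tested (grey), the 17 listed references (squares), MIR191 and MIR425 (large points), after TMM scaling. MIR191, at an SD of 0.30, lies near the lower edge of the cloud, and MIR425, at 0.53, lies among precursors of like level.

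Precursors of nearly the same mean CPM as MIR191 differed widely in spread. Just above it by mean CPM (5752) were MIR663A (5906), MIR92A1 (5933) and MIR93 (6639), and just below it MIR25 (5176), MIR182 (4986) and MIR92A2 (4586). Their SDs of log2 CPM ran from 0.23 for MIR92A2 to 2.05 for MIR663A, with MIR182 next at 1.31. By mean log2 CPM MIR663A lay lower than MIR191, at 11.29 against 12.47. MIR663A, whose sequence resembles rRNA, was called in all 6 comparisons after TMM scaling (the difference in response was not called with upper quartile scaling or total counts, with or without precursors that resemble rRNA, where the edgeR adjusted p was 0.0665 to 0.154) and rose 4.21 on the log2 scale with dabrafenib in A375 (edgeR adjusted p = 3.2e-09). Beside MIR425 (525 CPM) stood MIR26B (525), MIR760 (525) and MIR148B (549.7) above and MIR125B2 (522), MIR196A2 (504) and MIR3652 (497) below. MIR148B, MIR760, MIR125B2, MIR196A2 and MIR3652 were each called in 2 to 4 of the 6 comparisons. MIR26B, the nearest to MIR425 in level, was called in 0 of 6 and had an SD of log2 CPM of 0.38, against 0.53 for MIR425. The precursors with the most counts were MIRLET7B, MIRLET7I, the unnamed ENSG00000275110.1, MIRLET7A1 and MIRLET7A2, and each was called in 3 to 5 of the 6 comparisons.

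The microRNAs whose counts followed MIR191 most closely did not include MIR425. Likeness was measured by the SD over the 12 libraries of the log2 ratio to the member, with 0.5 added to each count. Closest to MIR191 were MIR92B (0.24), MIR151A (0.26), MIR130B (0.27), MIRLET7E (0.27) and MIR92A1 (0.27), and MIR425 was in place 72 of 174 with 0.68. Among 52 precursors with a median count within 2-fold of that of MIR425, 24 were closer to MIR191 than MIR425 was. Closest to MIR425 were MIR30E (0.37), MIR186 (0.49), MIR339 (0.51), MIR25 (0.54) and MIR106B (0.55), and MIR191 was in place 33. MIR25 and MIR106B are themselves neighbours in an intron of MCM7.

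Set beside other precursors that are transcribed together, MIR191 and MIR425 had one of the wider ratios within groups. As for likeness, 0.5 was added to each count, so values for MIR191 and MIR425 differ slightly from those of the plain ratio above. Of 16 pairs, that of MIR191 and MIR425 included, 13 had both precursors tested. By the SD of the log2 ratio over the libraries MIR191 and MIR425 (0.68) were in place 8. By the SD within groups, which leaves out line and treatment, they were in place 11 of 13 from the steadiest (0.77), with MIR23B and MIR27B (1.13) and MIR182 and MIR183 (1.29) wider. Over all libraries the steadiest were MIR100 and MIR125B1 (0.27), MIR181A1 and MIR181B1 (0.46) and MIR30E and MIR30C1 (0.51). The widest were MIR182 and MIR183 (1.12). Some listed precursors, such as MIR181A1 and MIR181B1, have a further gene elsewhere with the same mature strand, so their ratio is not that of a single transcript. Pairs with fewer counts have more counting error, which was 0.29 for MIR191 and MIR425, 0.23 for MIR100 and MIR125B1, 0.098 for MIR221 and MIR222 and 0.86 for MIR182 and MIR183. Between the lines the mean log2 ratio of MIR191 to MIR425 differed by 0.087, place 3 of 13 from the smallest difference in size, where the pairs ran from 0.012 (MIR100 and MIR125B1) to 1.15 (MIR23A and MIR27A). Between dabrafenib and DMSO it differed by -0.29, place 9 of 13.

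Around the pair on chromosome 3, 1 other microRNA gene had enough counts for a test. Of 19 other precursors within 5 Mb of MIR191, 14 (73.7%) had a count in some library, against 51.9% of all rows, and 1, MIRLET7G, was tested. MIRLET7G, a let-7 family member 3.25 Mb away in WDR82, had 464 to 3051 counts per library. Over both treatments MIRLET7G was higher in A375 than in A375-BIR, with a log2 fold change of 0.41 ± 0.14 (edgeR adjusted p = 0.0179), while MIR191 and MIR425 were at -0.16. Over both treatments this call was lost under 2 of the other 4 scalings, total counts (0.18, edgeR adjusted p = 0.206) and total counts without precursors that resemble rRNA (0.19, edgeR adjusted p = 0.187), and held under the others (edgeR adjusted p = 0.0138 and 0.0168). In DMSO MIRLET7G did not pass after TMM scaling (0.42, edgeR adjusted p = 0.0902) and passed under 3 of the other 4 scalings (edgeR adjusted p from 0.0231 to 0.0543 over the 4). In dabrafenib it passed under none of the 5, with 0.40 after TMM scaling (edgeR adjusted p = 0.109) and -0.070 with total counts (edgeR adjusted p = 0.749). The nearest precursor, MIR6890 at 0.0792 Mb, had 3 counts in all 12 libraries together, and MIR138-1 had 1 to 16.8 per library.

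MIR191 and MIR425 were last used as the reference themselves, with the libraries scaled to the count of MIR191, of MIR425 or of their sum, and the other 173 precursors tested by edgeR. For the line over both treatments 105 precursors were called after TMM scaling, 79 when scaled to MIR191, 83 when scaled to the sum and 54 when scaled to MIR425. For the line in DMSO the counts were 81, 59, 63 and 21 in the same order, and in dabrafenib 81, 50, 64 and 30. Fewer precursors were thus called with either member as the reference. For dabrafenib in A375 the counts were 44, 23, 27 and 13, and in A375-BIR 36, 19, 23 and 0 (31 at an unadjusted p under 0.05 with MIR425). For the difference in response 6 were called after TMM scaling and 0 with each of the others (11, 13 and 6 at an unadjusted p under 0.05). DESeq2 was not run with these references.

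The scatter added by the reference could be read from the biological coefficient of variation, the typical spread of a precursor between libraries of a group. It was 21.6% after TMM scaling, 26.9% when scaled to the sum, 28.9% when scaled to MIR191 and 44.7% when scaled to MIR425. The balance of calls also differed when scaled to MIR191: in DMSO 31 precursors were higher and 28 lower in A375, against 28 higher and 53 lower after TMM scaling. That split also moved without MIR191, to 38 higher and 43 lower with DESeq2 size factors and 53 and 41 with upper quartile scaling. With total counts it was 29 higher and 54 lower. For dabrafenib in A375-BIR 18 were higher and 1 lower with MIR191, against 23 higher and 13 lower with TMM, a split that was also 18 and 1 with TMM when only the libraries compared were fitted, 18 and 2 without replicate 1 of A375-BIR in DMSO and 20 and 2 without replicate 2 of A375-BIR in dabrafenib. With MIR191 as the reference the median log2 fold change of the other precursors lay between 0.011 and 0.11 over the 6 comparisons, and with MIR425 between -0.44 and 0.51.

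**Figure D5:**
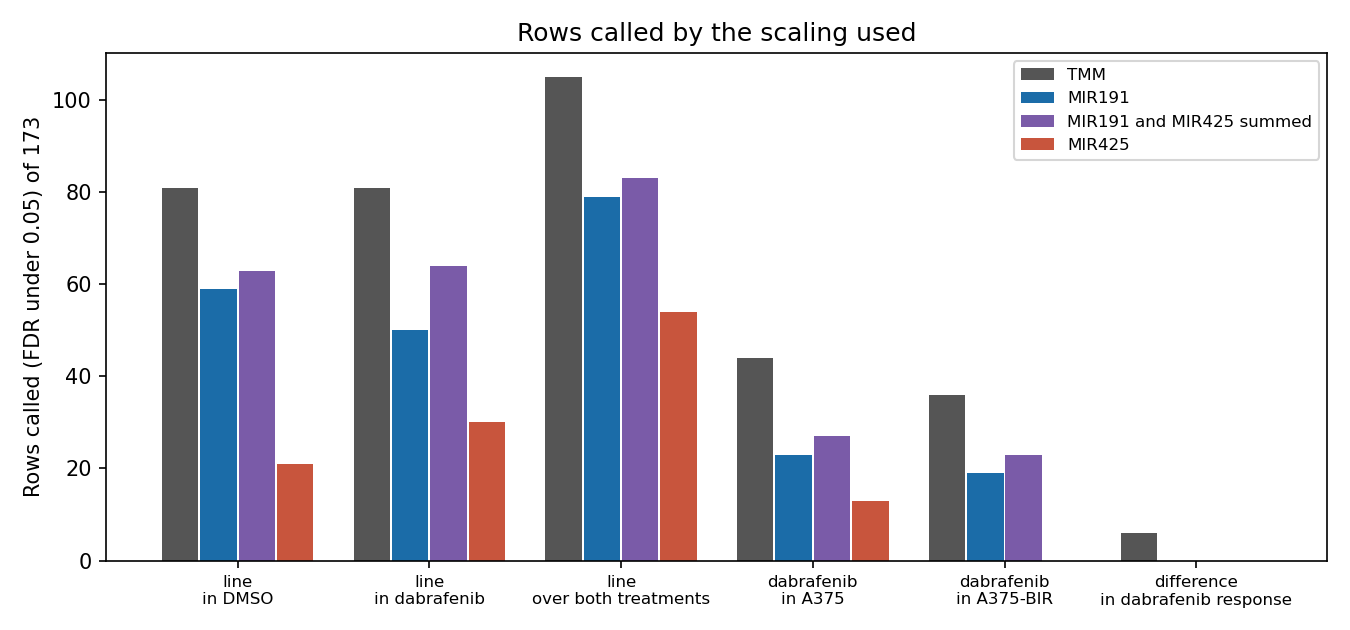
Number of the other 173 precursors called by edgeR (adjusted p under 0.05) in each comparison when the libraries were scaled by TMM, by MIR191, by the sum of MIR191 and MIR425, or by MIR425; the axis starts at 0. In the difference in response 6 were called with TMM and 0 with each member or their sum.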

How the data were processed

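Small RNA libraries of 2 lines under 2 treatments were used, 3 per group, and each was kept. After trimming of adapters and removal of contaminating sequences such as rRNA, the authors deposited RSEM (version 1.2.25 per the submitters' notes) expected counts per microRNA precursor on hg38, without normalization. Of 1881 rows, 1879 matched GENCODE v44, 1850 had a unique name and 977 had a count in some library. Rounded expected counts went into the tests, for which edgeR 4.0.16 under R 4.3.3 was the main tool (low rows filtered by filterByExpr on the groups, leaving 175 rows, both members included; TMM; a mean per line and treatment; quasi-likelihood test; Benjamini-Hochberg adjustment over the 175 rows; threshold 0.05). DESeq2 1.42.0 was the other tool, and the fitting code was tested on simulated data. Log2 CPM used a prior count of 2. CPM shown were made from unrounded counts. Python 3.11.15 ran the permutation tests. Genes named were the members, the listed references, clustered pairs, chromosome 3 neighbours and cell type markers where a value is given, the 5 rows most like each member, the 3 rows next to each in mean level above and below, and the 5 rows with the most counts; MIR1244-1, MIR11399 and MIR6890 were named after their values were seen. The members and lists were chosen with earlier results of these data known.

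Replicate numbers were checked for pairing. Deviations of same-numbered libraries correlated over the 175 rows with 0.11, 0.22 and 0.30 between the lines in DMSO, each over 0.1, so these numbers were taken to pair the libraries of that comparison, from the data and not from the labels. With the replicate block, fitted to all 12 libraries, its log2 fold changes were -0.19 for MIR191 and -0.18 for MIR425. A paired fit of the DMSO libraries alone was not run. The call of neither member changed, and 78 in place of 81 precursors were called. Alternatives were other filters, scalings and tests, only the libraries compared, the block, other counts and pseudocounts for the ratio, and each library left out; other scalings for the listed references, MIRLET7G and MIR663A were added after seeing the data.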

Additional observations from a re-analysis of the deposited data

How the results depend on the processing

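No alternative brought MIR191 or MIR425 past the threshold in any of the 6 comparisons: of 130 alternative log2 fold changes each, 0 had an adjusted p under 0.05, and the lowest adjusted p was 0.0646 for MIR191 and 0.0681 for MIR425. The direction held in 92 of 130 for MIR191 and 113 of 130 for MIR425, where most main values were near 0. The cause of the turned directions was not tested. Of 130 counts of called precursors, 120 stayed within 1.5 times the main count. MIR425, with 6 to 86 counts, limits what the ratio can show.

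For the line in DMSO, the log2 fold change turned to 0.0022 (DESeq2 size factors), 0.0019 (DESeq2 test) and 0.092 (upper quartile) for MIR191 and to 0.058 (upper quartile) for MIR425. For dabrafenib in A375, MIR191 turned to -0.38 (filter of 1 CPM or more in 3 libraries or more), -0.36 (no filter), -0.18 (DESeq2 size factors), -0.18 (DESeq2 test), -0.48 (total counts), -0.45 (total counts without precursors that resemble rRNA), -0.37 (upper quartile) and -0.17 (only the libraries compared), and MIR425 to -0.061 (total counts) and -0.035 (total counts without those precursors). For dabrafenib in A375-BIR, MIR191 turned to 0.054 with only the libraries compared. For the difference in response, in the order CPM filter, no filter, DESeq2 size factors, DESeq2 test, total counts, total counts without those precursors and upper quartile, MIR191 turned to -0.12, -0.082, -0.083, -0.082, -0.42, -0.41 and -0.27 and MIR425 to -0.12, -0.085, -0.031, -0.031, -0.40, -0.39 and -0.22. With only the libraries compared, 19 in place of 36 precursors were called for dabrafenib in A375-BIR, in a fit on fewer libraries; 2 comparisons use all 12 libraries and had no such fit. With total counts, and without those precursors, 1 in place of 6 was called for the difference in response. The correlation of the deviations of MIR191 and MIR425 passed the threshold with DESeq2 size factors (r = -0.42, exact permutation p = 0.0131).

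When libraries were omitted singly, the log2 fold change for the line in DMSO ran from -0.30 to 0.020 for MIR191 (highest without A375 DMSO replicate 2) and from -0.34 to 0.092 for MIR425 (highest without A375-BIR DMSO replicate 2). In dabrafenib it ran from -0.34 to 0.10 for MIR191 (highest without A375-BIR dabrafenib replicate 1) and from -0.57 to 0.25 for MIR425 (highest without A375 dabrafenib replicate 3). Over both treatments MIR425 ran from -0.38 to 0.026 (highest without A375 dabrafenib replicate 3). For dabrafenib in A375, MIR191 ran from -0.17 to 0.15, and was below 0 without A375 DMSO replicate 2 (-0.17), A375 dabrafenib replicate 2 (-0.055) or 3 (-0.013), A375-BIR dabrafenib replicate 2 (-0.010) or A375-BIR DMSO replicate 3 (-0.011). For dabrafenib in A375-BIR, MIR191 ran from -0.25 to 0.20, and was above 0 without A375 dabrafenib replicate 1 (0.048), A375-BIR dabrafenib replicate 2 (0.0038) or 3 (0.20) or A375-BIR DMSO replicate 1 (0.034) or 3 (0.050). For the difference in response, MIR191 ran from -0.17 to 0.28, and was below 0 without A375 dabrafenib replicate 2 (-0.045) or 3 (-0.0032), A375 DMSO replicate 2 (-0.16), A375-BIR dabrafenib replicate 2 (-0.014) or 3 (-0.17) or A375-BIR DMSO replicate 1 (-0.020) or 3 (-0.061). MIR425 ran from -0.37 to 0.45 there, and was below 0 without A375 dabrafenib replicate 1 (-0.37) or 2 (-0.038), A375-BIR dabrafenib replicate 1 (-0.045) or A375-BIR DMSO replicate 2 (-0.21). The log2 ratio of MIR191 to MIR425 ran from -0.24 to 0.36 for the line within treatment, and was below 0 without A375 dabrafenib replicate 3 (-0.24), A375-BIR DMSO replicate 2 (-0.071) or A375-BIR dabrafenib replicate 3 (-0.034), and from -0.40 to 0.81 for the difference in response, lowest without A375 dabrafenib replicate 3. The called precursors ranged from 20 to 46 for dabrafenib in A375-BIR (22 without A375-BIR dabrafenib replicate 2, 20 without DMSO replicate 1 and 22 without DMSO replicate 2) and from 2 to 6 for the difference in response (3 without A375 dabrafenib replicate 1 or 2 or A375 DMSO replicate 1, and 2 without A375-BIR dabrafenib replicate 2).

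Scaled to MIR425, 21, 30, 54, 13, 0 and 0 other precursors were called for the line in DMSO, in dabrafenib and over both treatments, dabrafenib in A375 and in A375-BIR and the difference in response, against 81, 81, 105, 44, 36 and 6 with TMM. Scaled to MIR191, the counts that moved were 50 for the line in dabrafenib, 23 for dabrafenib in A375, 19 in A375-BIR and 0 for the difference; scaled to the sum they were 27, 23 and 0 for the last 3. At an unadjusted p under 0.05 edgeR gave 31 with MIR425 for dabrafenib in A375-BIR and 11, 6 and 13 with MIR191, MIR425 and the sum for the difference.

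With the replicate block, 78, 78, 103, 34, 26 and 6 precursors were called in the same 6 comparisons, MIR191 was at -0.12 and MIR425 at -0.13 for the line in dabrafenib, and the block changed no call of either member. The ratio tests within the block gave exact permutation p values of 0.75, 0.469 and 1. Outside the line in DMSO the numbers did not pair the libraries: same-numbered correlations ran from -0.54 to 0.15, and 3, 2 and 0 of 6 libraries correlated best with their own number for the line in dabrafenib, dabrafenib in A375 and dabrafenib in A375-BIR.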
